A study of Mus musculus with 6 samples.

Results

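The cells described here are tumour macrophages that carried the complement C1q transcripts and MHC class II transcripts but no Arg1 transcript. Members were chosen by their own UMI counts: a barcode was taken when C1qa, C1qb and C1qc summed to at least 5 UMIs, when H2-Aa, H2-Ab1, H2-Eb1 and Cd74 summed to at least 20 UMIs, and when Arg1 was at 0. It also had at most 1 UMI of the resident markers Folr2, Lyve1, Cd163 and Timd4, at most 2 UMIs of the lipid genes Lpl, Fabp4, Mgll and Atp6v0d2, at most 1 UMI of the division genes Mki67 and Top2a, and none of Cd3e, Cd79a or Epcam. A UMI marks 1 captured transcript molecule. Of 39928 barcodes that passed quality control, 2026 (5.07%) met every condition, and they are called Arg1-negative class II macrophages below. They came from the 6347 non-dividing barcodes with at least 5 C1q UMIs, which are called C1q macrophages.

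The tumours were pancreatic ductal adenocarcinomas of KPC mice, which carry p53LSL.R172H/+ and Pdx1-Cretg/+ among their alleles, so that Cre under the Pdx1 promoter switches on mutant p53 in the pancreatic epithelium. All 6 mice of both groups were of this model, and they were assigned at random once ultrasound showed a tumour of 4 to 7 mm. The treated group was 3 mice given trametinib (1 mg/kg), a MEK inhibitor, together with hydroxychloroquine (40 mg/kg), which impairs lysosomal acidification, both by mouth. The vehicle group was 3 mice given corn oil and water. Tumours were collected 24 h after treatment and dissociated enzymatically, and 1 droplet library was made per mouse. The ages of the mice are not given in the sources used here.

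C1q is the recognition part of the classical complement pathway, and in tissues it is made chiefly by macrophages. MHC class II molecules present peptides from the endosome to CD4+ T cells, and the invariant chain Cd74 guides them there. Arginase 1, the product of Arg1, breaks down arginine, and tumour macrophages that make it are widely studied as a T cell restraining population.

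Library totals were 70523616, 76593524 and 103825578 UMIs in treated mice 1, 2 and 3, and 22996012, 122040812 and 126645602 UMIs in vehicle mice 1, 2 and 3. No Arg1-negative class II macrophage barcode was shared between libraries, and any pair of libraries shared 0 to 24 barcodes in all. The libraries of treated mice 1 and 2 stood apart in these cells. Barcodes with under 0.3% of their UMIs from the nuclear RNAs Malat1 and Neat1 made up 66.8%, 72.2% and 13.8% of the cells in treated mice 1, 2 and 3. Their share was 4.30%, 9.54% and 6.11% in vehicle mice 1, 2 and 3 (two-sided exact permutation p = 0.1, the smallest that 3 against 3 mice allow). These barcodes were also shallow, with a median of 1345 UMIs in treated 1 and 1378 in treated 2, where the remaining cells had medians of 9270 and 8081. Treated 1 and treated 2 were also the most alike pair, with an SD of log2 ratios across genes of 0.304, where the other pairs had 0.430 to 0.903, but they differed by more than sampling noise (chi-square of 4.31 per gene). The part of these barcodes in a difference between the groups was not tested on its own, and results are given with and without them. Vehicle 1 had the smallest library and the highest neutrophil and red cell transcripts outside the C1q macrophages.

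The label fitted its markers. In every mouse Cd74, H2-Aa, H2-Ab1 and C1qa were abundant, as the selection required, and all 22 genes of a list of core macrophage genes reached at least 10 CPM, the UMI count scaled to one common total in the summed cells of each mouse. The core list summed to 53053, 45967 and 44653 CPM in treated mice 1 to 3, and to 34452, 29410 and 31357 CPM in vehicle mice 1 to 3. Apoe and Lyz2 made up most of each sum. Of the 22 genes, 15 had a log2 fold change of treated over vehicle above 0 and 7 below 0 (median 0.22). In barcodes of the same libraries outside the C1q macrophages, which leaves out the other C1q macrophages too, the core list summed to 1850 to 7209 CPM. Markers of dendritic cells were 10 genes such as Flt3 and Xcr1. They summed to 43.5 to 126 CPM in treated mice and 67.6 to 120 CPM in vehicle mice. In the 5 mice compared with resident-type macrophages below, these sums exceeded those of the resident-type cells. After each cell was thinned to 2000 UMIs, Flt3 was detected in at most 1.45% of the cells of any mouse, and in at most 2.13% unthinned.

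Transcripts of other cells were present at levels that differed between mice. Tumour epithelial markers summed to 653, 720 and 226 CPM in treated mice and to 2230, 952 and 273 CPM in vehicle mice. Fibroblast markers summed to 82.3, 595 and 3156 CPM in treated mice and to 80.6, 1518 and 1990 CPM in vehicle mice. Neutrophil markers summed to 64.9, 90.0 and 129 CPM in treated mice and to 666, 134 and 1024 CPM in vehicle mice, with no overlap between the groups.

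Values at the edges of the selection show how fine the boundary was. In all, 2057 barcodes missed only the Arg1 condition, and 400 of these had 1 Arg1 UMI. At the C1q boundary 54 cells had exactly 5 UMIs and 52 barcodes that met all else had 4. At the class II boundary 18 cells had 20 UMIs and 12 barcodes had 19. Within the selection 195 cells had 1 resident marker UMI, and 74 barcodes were left out with 2.

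The Arg1-negative class II macrophages made up 42.0%, 46.6% and 5.48% of C1q macrophages in treated mice 1, 2 and 3, that is 265, 407 and 94 cells. In vehicle mice 1, 2 and 3 they made up 22.96%, 63.4% and 33.4%, that is 93, 545 and 622 cells. The groups overlapped, and treated 3 was the lowest of all mice. Membership rests on Arg1 at 0 UMIs, which a shallower cell meets more easily. With cells thinned to 2000 UMIs before the selection, treated 3 had 211 members, or 12.99% of its C1q macrophages. The thinned shares were 56.8% and 53.6% in treated 1 and 2, against 30.3%, 68.4% and 37.2% in vehicle 1, 2 and 3, a difference of -4.18 points (exact permutation p = 0.9). Treated 3 stayed the lowest. Without thinning the mean share was 31.4% ± 22.5 in treated mice and 39.9% ± 21.0 in vehicle mice (SD, n = 3 each), a difference of -8.55 percentage points (two-sided exact permutation p = 0.7, smallest possible 0.1). As a share of all barcodes that passed quality control the values were 6.45%, 7.52% and 1.47% in treated mice, against 4.25%, 5.23% and 5.45% in vehicle mice. Arg1-expressing cells of otherwise like selection numbered 71, 112 and 576 in treated mice, against 117, 80 and 701 in vehicle mice. Leaving out the Malat1-poor barcodes gave means of 21.6% in treated mice and 39.9% in vehicle mice (exact permutation p = 0.4). The difference was 4.39 points without treated 3 and 3.21 points without vehicle 2, against the sign over all 6 mice.

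**Figure D1:**
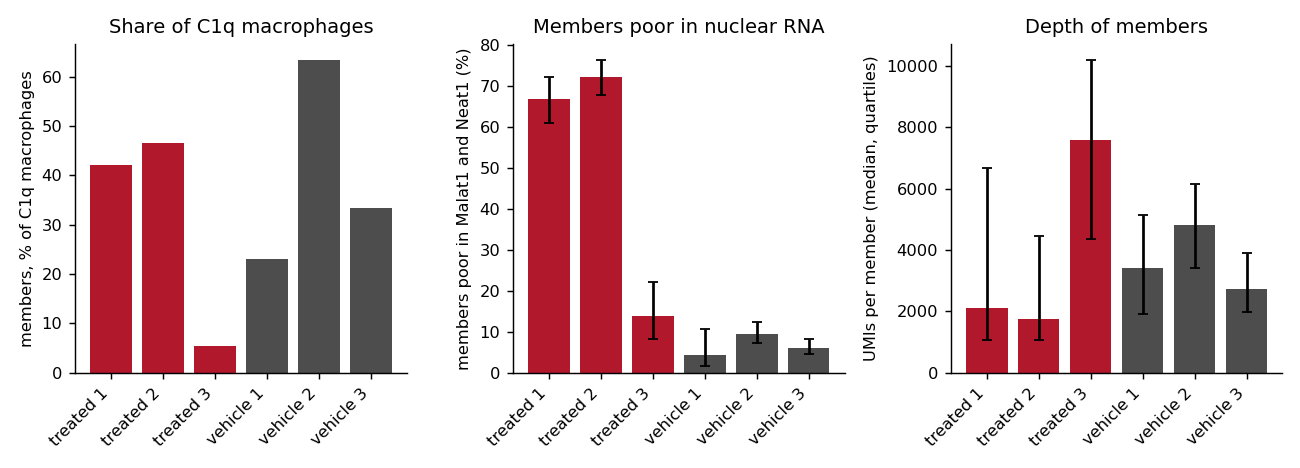
Arg1-negative class II macrophages (called members in the plots) by mouse: their percent of C1q macrophages, the percent of them with under 0.3% Malat1 and Neat1 UMIs with 95% Wilson intervals, and their median UMIs per cell with quartiles, treated mice left of vehicle mice. Treated 3 held the lowest share at 5.48%, and treated 1 and treated 2 held the most Malat1-poor barcodes at 66.8% and 72.2%.

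The genes used in the selection are given as description only. Cd74 stood at 20508, 16220 and 18137 CPM in treated mice and at 17977, 18884 and 16585 CPM in vehicle mice. H2-Aa, an alpha chain of class II, stood at 6061, 5047 and 8266 CPM in treated mice and at 5766, 9565 and 6300 CPM in vehicle mice. C1qa stood at 5222, 4690 and 3138 CPM in treated mice and at 3985, 3899 and 3386 CPM in vehicle mice. For each of these 3 genes the groups overlapped.

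Individual cells were compared after thinning each to 2000 UMIs, which left out 616 cells below that depth and kept 137, 180 and 81 cells in treated mice, against 69, 480 and 463 in vehicle mice. Csf1r, the receptor that keeps macrophages alive, was detected in 68.6%, 64.4% and 69.1% of cells in treated mice, against 71.0%, 63.8% and 59.8% in vehicle mice. In 500 barcodes per library with no C1q UMI, at median depths of 7371 to 17282.5 UMIs before thinning, it was detected in 1.6% to 9.8%. Unthinned, Csf1r was detected in 60.9% to 88.3% of the cells, at median depths of 1734 to 7592 UMIs.

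The chemokine receptors of monocyte-derived macrophages varied from mouse to mouse. Ccr2, which brings monocytes out of the blood, was detected in 21.2%, 17.2% and 58.0% of thinned cells in treated mice, against 15.9%, 45.8% and 60.04% in vehicle mice. Treated 1, treated 2 and vehicle 1 thus had low values, and the groups overlapped. Cx3cr1, the fractalkine receptor, was steadier at 35.0%, 27.2% and 33.3% in treated mice, against 39.1%, 36.2% and 25.5% in vehicle mice. Both exceeded the barcodes without C1q, at up to 9.4% for Ccr2 and up to 1.4% for Cx3cr1. Unthinned, Ccr2 was detected in 14.7% to 71.3% of cells and Cx3cr1 in 29.7% to 55.6%.

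Some markers of other macrophage states were rare or at background. Spp1, the secreted glycoprotein osteopontin, was detected in 18.3% to 49.2% of thinned cells (22.1% to 73.0% unthinned) but in 30.4% to 67.0% of barcodes without C1q, so its share in these cells cannot be read as expression. Gpnmb, a glycoprotein of lipid-laden macrophages, was detected in at most 2.47% of thinned cells in any mouse, 7.45% unthinned and 1.2% of barcodes without C1q. Cxcl9, an interferon-gamma chemokine, was detected in at most 2.81% of thinned cells, and in at most 0.4% of barcodes without C1q.

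Transcripts also varied between the cells of a mouse. Over thinned cells the variance over the mean of UMIs, taken as the median over 6 mice, was 33.2 for Apoe, the lipid carrier apolipoprotein E. It was 15.8 for Saa3, an acute-phase protein, 14.2 for Malat1, the nuclear RNA whose low share marked the shallow barcodes, 11.7 for the lysozyme Lyz2, 10.6 for the neutrophil chemokine Cxcl2 and 9.43 for the ferritin chain Fth1. Further down it was 7.57 for the chemokine Ccl4 and for S100a6, a calcium-binding protein, 7.13 for Spp1, 6.90 for the monocyte chemokine Ccl8 and 5.60 for the cytokine Il1b. For counts that vary only by sampling this ratio is near the Poisson value, at which variance equals mean. By mouse, the ratio for Saa3 ran from 1.11 in vehicle 2 to 29.7 in vehicle 1. The ratio for Ccl8 ran from 2.96 in vehicle 1 to 47.3 in vehicle 2. Ccl8 was detected in 18.98%, 23.3% and 6.17% of thinned cells in treated mice, against 1.45%, 2.92% and 3.89% in vehicle mice, and in at most 1.2% of barcodes without C1q. Unthinned, Ccl8 was detected in 15.96% to 29.5% of cells in treated mice, against 3.23% to 7.16% in vehicle mice.

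Counts were then summed over the cells of each mouse and tested with edgeR's quasi-likelihood test and Benjamini-Hochberg adjustment at 0.05. Such sums cannot tell fewer cells with a transcript from less transcript per cell. The first question was whether trametinib with hydroxychloroquine changed these cells. Of 8949 genes tested, 0 (0.0%) passed in either direction, although 357 had an unadjusted p under 0.05. DESeq2 called 13 genes, 4 higher and 9 lower. The groups did not overlap for 412 genes higher in treated mice (4.6%) and 489 lower (5.46%).

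Most lysosome genes lay higher in treated mice, without a call. Of 50 lysosome genes tested, 43 had a log2 fold change above 0. The list median was 0.34, where that of all genes tested was 0.00. Of the 50, 15 did not overlap with higher values in treated mice and 1 with lower values, against 4.6% and 5.46% of all genes. The median lay between 0.30 and 0.46 under 18 other settings, those without Malat1-poor barcodes included. No lysosome gene passed the test.

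Ctsb, the lysosomal protease cathepsin B, stood at 2325, 2256 and 1772 CPM in treated mice and at 1106, 1151 and 1285 CPM in vehicle mice (log2 fold change 0.81, SE 0.24, edgeR adjusted p = 1.00). Psap, the precursor of the saposins that help lysosomal enzymes digest sphingolipids, stood at 2886, 2877 and 3375 CPM in treated mice and at 1808, 1497 and 1855 CPM in vehicle mice (0.77, SE 0.25, adjusted p = 1.00). Every treated mouse exceeded every vehicle mouse for both genes. Ctsd, the protease cathepsin D, averaged 1069 ± 366 CPM in treated mice and 633 ± 111 CPM in vehicle mice (SD, n = 3 each), again without overlap (0.72, SE 0.29, edgeR adjusted p = 1.00). Outside that list, Selenop, the secreted selenium carrier selenoprotein P, stood at 921, 857 and 824 CPM in treated mice and at 454, 500.5 and 467 CPM in vehicle mice (0.84, SE 0.23, edgeR adjusted p = 1.00). Apoe stood at 27897, 26496 and 19361 CPM in treated mice and at 19200.4, 10499.7 and 10609 CPM in vehicle mice. Its groups did not overlap, since vehicle 1 lay just below treated 3 (0.79, SE 0.35, edgeR adjusted p = 1.00).

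Most respiratory chain genes lay lower in treated mice, also without a call. Of 42 nuclear genes of oxidative phosphorylation tested, 40 had a log2 fold change below 0, with a median of -0.43. Of the 42, 8 did not overlap with lower values in treated mice, against 5.46% of all genes tested. None passed the test, and the median lay between -0.60 and -0.13 under the other settings. Cox4i1, a subunit of cytochrome c oxidase, stood at 1044, 956 and 1107 CPM in treated mice and at 1599, 1204 and 1298 CPM in vehicle mice (-0.46, SE 0.27, edgeR adjusted p = 1.00). The treated values lay below all vehicle values. The percent of UMIs from mitochondrial genes ran the opposite way, with medians of 4.91, 5.74 and 4.99 in treated mice, against 2.33, 4.51 and 3.12 in vehicle mice (exact permutation p = 0.1, the smallest possible).

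Genes read as output of the pathway that trametinib blocks gave no call. Of 27 MAPK output genes tested, 17 were below 0, with a median of -0.15. Dusp6, a phosphatase induced by ERK, stood at 59.3, 65.4 and 52.2 CPM in treated mice and at 69.1, 81.9 and 42.9 CPM in vehicle mice (-0.13, SE 0.29, edgeR adjusted p = 1.00). The groups overlapped, as they did for Etv5, an ERK-induced transcription factor, at 20.6 ± 10.9 CPM in treated mice and 26.8 ± 7.53 CPM in vehicle mice. Of 37 autophagy genes 23 were above 0, with a median of 0.07. The autophagy receptor Sqstm1 averaged 69.9 ± 15.5 CPM in treated mice and 86.3 ± 31.4 CPM in vehicle mice, and the autophagosome protein Map1lc3b averaged 297 ± 4.97 CPM in treated mice and 252 ± 28.7 CPM in vehicle mice (SD, n = 3 each).

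Presentation and inflammatory genes were also without calls. Among 9 class II loading and control genes outside the selection, the median was 0.12. Ciita, the master regulator of class II genes, stood at 166, 148 and 245 CPM in treated mice and at 64.5, 225 and 159 CPM in vehicle mice, which overlapped (0.30, SE 0.37, edgeR adjusted p = 1.00). H2-DMa, which helps load peptides onto class II, averaged 901 ± 81.0 CPM in treated mice and 852 ± 50.7 CPM in vehicle mice. Of 16 class I presentation genes 13 were below 0 (median -0.22), and of 24 inflammatory cytokine and chemokine genes 17 were below 0 (median -0.39). Il1b averaged 1529 ± 277 CPM in treated mice and 1578 ± 1078 CPM in vehicle mice. Ccl8 stood at 210.4, 353 and 62.3 CPM in treated mice and at 34.6, 95.8 and 54.0 CPM in vehicle mice, so treated 3 lay inside the vehicle range (1.75, SE 0.59, edgeR adjusted p = 1.00).

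A further 3 genes were chosen after their values were seen, as having small unadjusted p values and no overlap. Plac8, which marks monocytes among myeloid cells, stood at 45.9, 33.8 and 65.2 CPM in treated mice and at 963, 357 and 328 CPM in vehicle mice (-3.63, SE 0.57, edgeR adjusted p = 0.482). Neutrophil markers moved with it, at a median log2 fold change of -3.40 over 5 tested, as did tumour epithelial markers at -1.49 over 9, and their part in it was not tested. Plac8 had the largest fall of 13 monocyte genes tested, which ran from -3.63 to 3.78. Of the 13, 9 were below 0 and 4 above, with a median of -0.27. That median lay between -1.34 and 0.24 under 18 other settings. Il18bp, the decoy that binds the cytokine IL-18, stood at 30.1, 33.3 and 20.3 CPM in treated mice and at 6.91, 4.88 and 5.04 CPM in vehicle mice (2.45, SE 0.36, edgeR adjusted p = 0.347). Ccn3, a matricellular protein, averaged 148 ± 31.8 CPM in treated mice and 40.0 ± 13.8 CPM in vehicle mice (1.90, SE 0.35, edgeR adjusted p = 0.613).

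**Figure D2:**
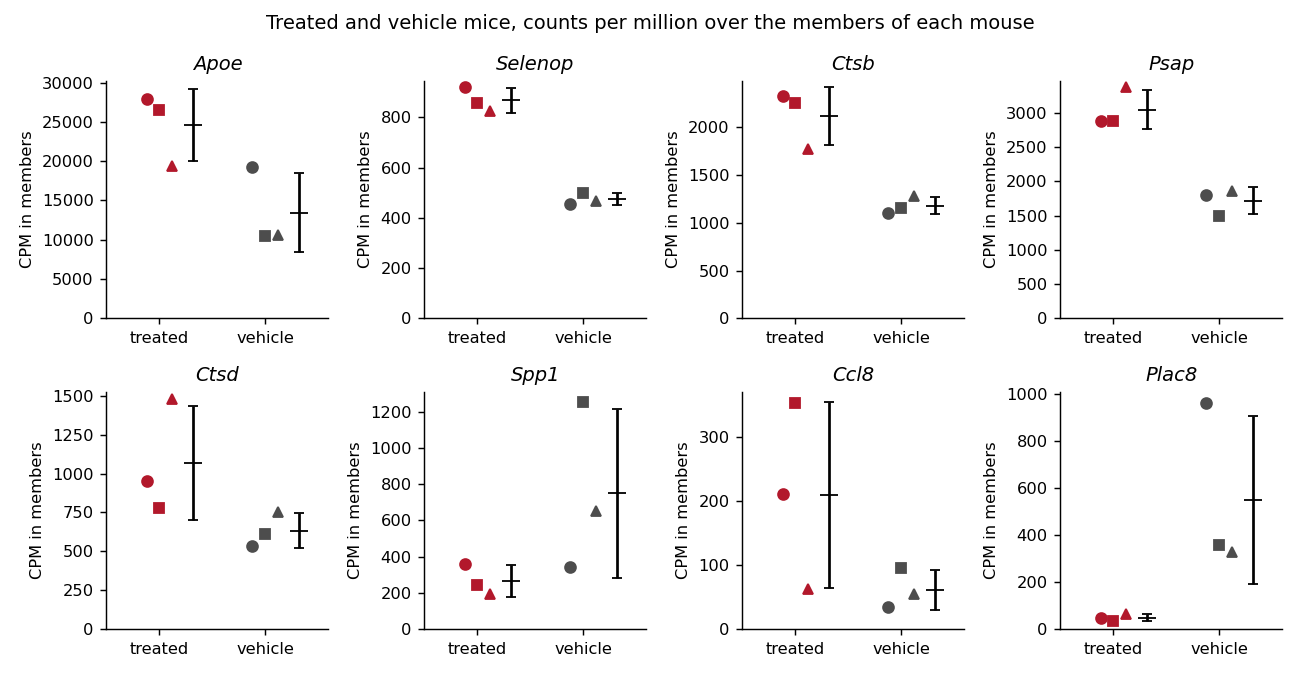
Level of selected transcripts in Arg1-negative class II macrophages, in CPM, 1 point per mouse with the mean ± SD of 3 treated mice (left) and 3 vehicle mice (right). No gene passed the edgeR test, while Ctsb at 1772 to 2325 CPM in treated mice lay above 1106 to 1285 CPM in vehicle mice.

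The second comparison set the Arg1-negative cells against 1657 Arg1-expressing cells of the same mice, which met every other condition but had at least 2 Arg1 UMIs. Each of the 6 mice gave both sums, and mouse was a term of the edgeR fit. Of 7743 genes tested, 317 (4.09%) passed, of which 81 (1.05%) were higher and 236 (3.05%) were lower in the Arg1-negative cells. Genes of glycolysis and the hypoxia response were lower almost throughout, while Cx3cr1, Selenop and Gas6 were higher. The Arg1-negative cells were shallower, at means of 4771, 4505 and 7342 UMIs per cell in treated mice, against 4668, 5264 and 3187 in vehicle mice. The Arg1-expressing cells had means of 9940, 8740 and 11945 in treated mice, against 6286, 6941 and 4891 in vehicle mice. With every cell thinned to 2000 UMIs 246 genes were called, 126 of them also without thinning, and without Malat1-poor barcodes 301 were called, 252 of them shared. Leaving out treated 3 gave 205 calls and leaving out vehicle 2 gave 193.

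Of 21 glycolysis and hypoxia genes tested, 20 were lower in the Arg1-negative cells, with a median log2 fold change of -0.80, where the median of all genes was 0.01. Over 11 other settings between 15 and 21 of them were lower, and the median stayed between -0.86 and -0.74. The remaining gene, Hk1, a hexokinase named after its value was seen, had a log2 fold change of -0.45 (SE 0.17, edgeR adjusted p = 0.180).

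Hypoxia-inducible factor, the transcription factor that induces much of this program when oxygen is low, binds a core of the letters ACGTG or GCGTG. The 250 bases before the RefSeq start of 3 called genes are given in lower case, 5′ to 3′ on the gene's strand, with those 5 letters on either strand in capitals and overlapping matches merged. They are shown to set the gene with the largest fall of the 3, Bnip3, beside Gapdh and a gene without a match, Gpi1. All lie on the minus strand of GRCm38.p6, at chr7:138909507-138909756 for Bnip3, chr6:125165774-125166023 for Gapdh and chr7:34230337-34230586 for Gpi1.
Bnip3: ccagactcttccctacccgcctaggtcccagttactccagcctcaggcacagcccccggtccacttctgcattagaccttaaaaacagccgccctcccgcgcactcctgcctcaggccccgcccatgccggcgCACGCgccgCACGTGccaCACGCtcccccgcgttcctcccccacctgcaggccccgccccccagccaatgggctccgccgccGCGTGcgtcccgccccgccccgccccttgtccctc
Gapdh: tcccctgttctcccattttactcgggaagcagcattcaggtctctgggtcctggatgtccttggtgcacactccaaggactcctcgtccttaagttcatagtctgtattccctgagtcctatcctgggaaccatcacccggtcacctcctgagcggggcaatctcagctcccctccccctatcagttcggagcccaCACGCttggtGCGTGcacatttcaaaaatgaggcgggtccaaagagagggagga
Gpi1: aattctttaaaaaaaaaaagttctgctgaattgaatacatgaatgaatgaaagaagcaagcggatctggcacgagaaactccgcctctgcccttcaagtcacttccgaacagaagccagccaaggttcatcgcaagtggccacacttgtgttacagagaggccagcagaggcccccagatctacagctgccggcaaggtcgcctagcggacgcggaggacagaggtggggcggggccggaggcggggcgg
The Bnip3 window held 5 matches, 2 of ACGTG and 3 of GCGTG, the nearest 35 bases before the start. The 2 matches of ACGTG overlapped, as the same stretch read on opposite strands. The Gapdh window held 2 and the Gpi1 window 0. Of the 19 tested list genes with a RefSeq promoter entry, 13 (68.4%) held a match, against 59.8% of 6215 tested genes with an entry and 38.6% of all 27025 genes with an entry. Among genes lower in the Arg1-negative cells 57.9% of 183 held one. A match is a description of letters and not a bound site, and Gpi1 was lower with none in its window.

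Bnip3, a receptor that marks mitochondria for removal (chr7:138890836-138909519), stood in Arg1-negative cells at 25.3, 31.6 and 31.9 CPM in treated mice, against 27.6, 22.0 and 30.3 CPM in vehicle mice. In Arg1-expressing cells it stood at 80.8, 98.1 and 107 CPM in treated mice, against 36.7, 72.0 and 78.8 CPM in vehicle mice. It was lower in the Arg1-negative cells of each mouse, without overlap between the classes (-1.54, SE 0.15, edgeR adjusted p = 4.32e-06). Ero1l, an oxidase that forms disulfide bonds in the endoplasmic reticulum, averaged 37.3 ± 12.1 CPM in Arg1-negative cells and 93.6 ± 35.7 CPM in Arg1-expressing cells (SD, n = 6 mice each), a log2 fold change of -1.36 (SE 0.12, edgeR adjusted p = 2.19e-06). Gapdh, the glycolytic enzyme glyceraldehyde-3-phosphate dehydrogenase, stood in Arg1-negative cells at 2062, 2157 and 1298 CPM in treated mice, against 2057, 1747 and 1834 CPM in vehicle mice. Its levels in Arg1-expressing cells were 2809.9, 2769 and 2367 CPM in treated mice, against 2908, 3053 and 2790.3 CPM in vehicle mice. Treated 3 was lowest in both classes, which did not overlap (-0.63, SE 0.06, edgeR adjusted p = 1.27e-05). Gpi1, the isomerase of the second glycolytic step, averaged 266 ± 34.8 CPM in Arg1-negative cells and 458 ± 92.9 CPM in Arg1-expressing cells (-0.81, SE 0.09, edgeR adjusted p = 2.11e-05).

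Outside that list, Slc7a2, a membrane carrier that brings arginine into the cell, stood in Arg1-negative cells at 16.6, 8.73 and 40.6 CPM in treated mice, against 4.61, 9.76 and 10.1 CPM in vehicle mice. In Arg1-expressing cells it stood at 92.1, 68.4 and 238 CPM in treated mice, against 36.7, 45.03 and 85.2 CPM in vehicle mice. Treated 3 was highest in both classes, and every mouse was lower in its Arg1-negative cells (-2.69, SE 0.15, edgeR adjusted p = 5.48e-09). Alox15, a lipoxygenase that oxidises polyunsaturated fatty acids, averaged 6.77 ± 10.4 CPM in Arg1-negative cells and 56.1 ± 74.2 CPM in Arg1-expressing cells (-2.97, SE 0.26, edgeR adjusted p = 3.95e-06). Hilpda, a lipid droplet protein induced by hypoxia, averaged 90.8 ± 33.3 CPM in Arg1-negative cells and 284 ± 101 CPM in Arg1-expressing cells (-1.66, SE 0.14, edgeR adjusted p = 4.32e-06). Adam8, a membrane metalloprotease, fell by 1.51 on the log2 scale, Rgcc, a regulator of the cell cycle, by 2.14, and Lepr, the leptin receptor, by 1.61. Prtn3, a granule protease known from neutrophils, and the cytokine Il6 also fell, by 2.34 and 1.53, but both lost the call under other settings, with adjusted p up to 0.140 and 0.0973.

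**Figure D3:**
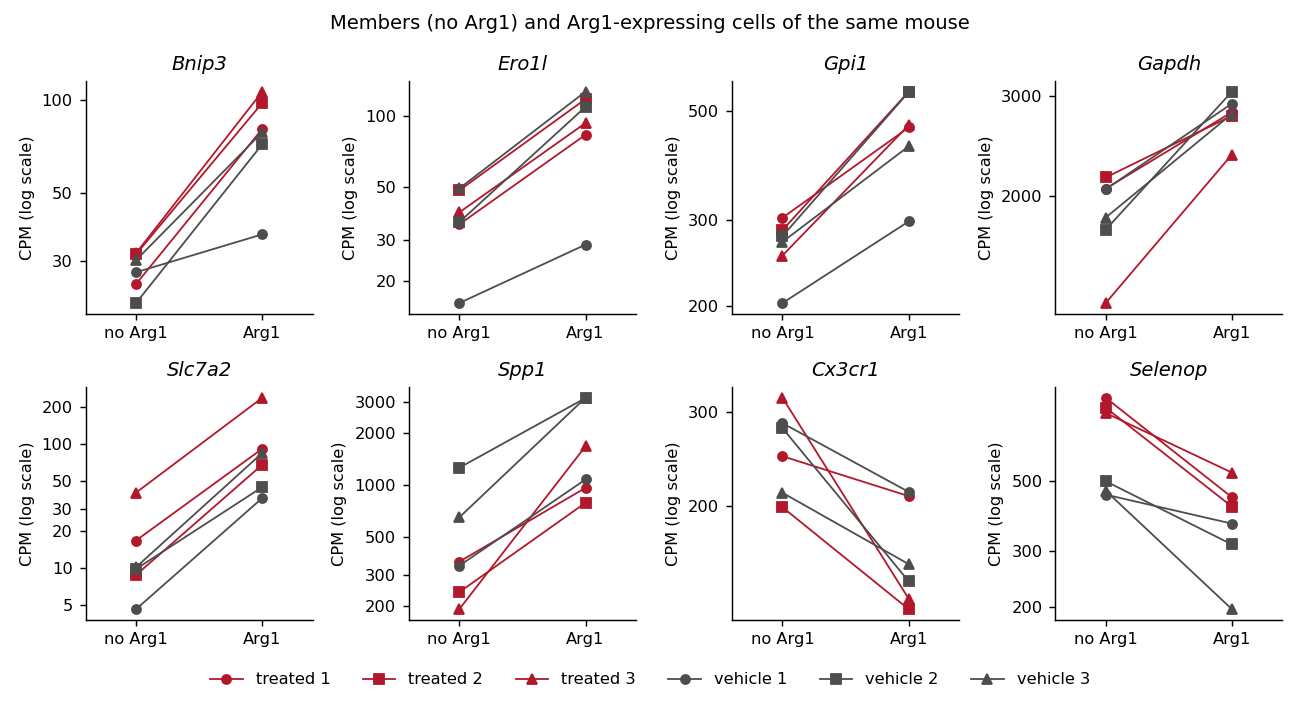
Levels in CPM on a log axis in Arg1-negative cells (left, no Arg1) and Arg1-expressing cells (right), joined by mouse, with treated and vehicle mice in separate colours. Bnip3 at 22.0 to 31.9 CPM in Arg1-negative cells lay below 36.7 to 107 CPM in Arg1-expressing cells in all 6 mice.

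Of 13 lipid-associated macrophage genes tested, 5 were lower and none higher, with a median of -0.61. Over 11 other settings 3 to 8 were lower, the fewest with 1 of treated 1, treated 2, vehicle 1 or vehicle 2 left out. Lgals3, the galectin that marks phagocytic macrophages, averaged 865 ± 135 CPM in Arg1-negative cells and 1296 ± 252 CPM in Arg1-expressing cells (-0.61, SE 0.07, edgeR adjusted p = 2.50e-05). Apoc2, an apolipoprotein that activates lipoprotein lipase, averaged 152 ± 70.0 CPM in Arg1-negative cells and 278 ± 101 CPM in Arg1-expressing cells (-0.94, SE 0.10, edgeR adjusted p = 1.83e-05). Plin2, which coats lipid droplets, fell by 0.53 (SE 0.11, edgeR adjusted p = 0.00939), with an adjusted p of up to 0.280 under other settings. Spp1 averaged 506 ± 401 CPM in Arg1-negative cells and 1811 ± 1104 CPM in Arg1-expressing cells (-1.94, SE 0.27, edgeR adjusted p = 0.0234). It held under 6 of 11 other settings, and its detected share in the Arg1-negative cells was at background, as given above. Trem2, a lipid-sensing receptor, did not pass, at 219.8 ± 52.4 CPM in Arg1-negative cells and 243 ± 60.9 CPM in Arg1-expressing cells (-0.17, SE 0.11, edgeR adjusted p = 0.529).

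Of 23 cytokine and chemokine genes tested, 6 were lower and 1 was higher, with a median of -0.48. Over 11 other settings 3 to 13 were lower, with 3 when vehicle 2 was left out and 13 with no filter on low counts. Il1a, the alarmin interleukin-1 alpha, stood in Arg1-negative cells at 231, 147 and 116 CPM in treated mice, against 6.91, 49.1 and 116 CPM in vehicle mice. Arg1-expressing cells had it at 408, 312 and 209 CPM in treated mice, against 31.3, 236 and 293 CPM in vehicle mice. Vehicle 1 was lowest in both classes, and each mouse was lower in its Arg1-negative cells (-1.30, SE 0.19, edgeR adjusted p = 0.00329). Il1rn, which blocks the interleukin-1 receptor, averaged 151 ± 106 CPM in Arg1-negative cells and 233 ± 124 CPM in Arg1-expressing cells (-0.71, SE 0.11, edgeR adjusted p = 0.00100). Cxcl14, a chemokine, fell by 0.99 (SE 0.14, edgeR adjusted p = 0.00190). Tnf, the cytokine TNF, fell by 0.53 (SE 0.11, edgeR adjusted p = 0.0105). Il1a, Cxcl14 and Tnf each lost the call under 1 of 11 other settings, at adjusted p of 0.533, 0.0861 and 0.0888.

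Of 12 LXR targets 3 were lower, among them Abca1, the exporter of cholesterol, at 126 ± 50.3 CPM in Arg1-negative cells and 209 ± 77.1 CPM in Arg1-expressing cells (-0.77, SE 0.11, edgeR adjusted p = 0.000490). Smpdl3a, a phosphodiesterase, fell by 0.87 (SE 0.12, edgeR adjusted p = 0.000312), and Mertk, a receptor for dying cells, by 0.70 (SE 0.10, edgeR adjusted p = 0.000499). Fn1, the matrix protein fibronectin, stood in Arg1-negative cells at 868, 864 and 2271 CPM in treated mice, against 599, 997 and 1989 CPM in vehicle mice. Its levels in Arg1-expressing cells were 2364, 2313 and 4186 CPM in treated mice, against 1474, 1999 and 3499 CPM in vehicle mice. Treated 3 and vehicle 3 were highest in both classes, and every mouse was lower in its Arg1-negative cells (-1.17, SE 0.09, edgeR adjusted p = 2.50e-05). Tgm2, which cross-links proteins, fell by 1.11 (SE 0.10, edgeR adjusted p = 2.19e-06). Cd274, which encodes the checkpoint ligand PD-L1, averaged 25.2 ± 12.8 CPM in Arg1-negative cells and 46.4 ± 20.2 CPM in Arg1-expressing cells (-0.89, SE 0.15, edgeR adjusted p = 0.00185), with an adjusted p of up to 0.103 under other settings.

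Fewer genes were higher. Hspb1, a small heat shock protein, averaged 89.5 CPM in Arg1-negative cells, from 41.1 to 184 over the 6 mice, and 25.3 CPM in Arg1-expressing cells, from 8.72 to 66.6 (1.94, SE 0.20, edgeR adjusted p = 7.10e-05). Gas6, a bridge between dying cells and Mertk, stood in Arg1-negative cells at 30.8, 36.5 and 73.9 CPM in treated mice, against 39.2, 82.3 and 41.9 CPM in vehicle mice. In Arg1-expressing cells it stood at 17.0, 19.4 and 16.1 CPM in treated mice, against 28.6, 39.6 and 8.46 CPM in vehicle mice. Every mouse was higher in its Arg1-negative cells (1.43, SE 0.24, edgeR adjusted p = 0.00483). Cx3cr1 stood in Arg1-negative cells at 248, 199 and 319 CPM in treated mice, against 286, 279.5 and 211 CPM in vehicle mice. Arg1-expressing cells had it at 208, 128 and 134 CPM in treated mice, against 212, 144 and 155 CPM in vehicle mice. All 6 mice were higher in the Arg1-negative cells, though the classes overlapped across mice (0.64, SE 0.12, edgeR adjusted p = 0.00441). Selenop rose by 0.80 (SE 0.11, edgeR adjusted p = 0.000892), Fcrls, an Fc receptor-like protein, by 1.87 (SE 0.33, edgeR adjusted p = 0.0105), and Ms4a4c, a gene of monocytes, by 1.17 (SE 0.17, edgeR adjusted p = 0.000499). Of 14 monocyte genes tested, 5 were above 0 and 9 below, with a median of -0.24. Ms4a4c was 1 of 2 called higher, and Fn1 was the 1 called lower. With Gas6 and Fcrls, Selenop made 3 higher genes among 15 of an alternative activation list, against 1 lower, Tgm2. Of 21 interferon response genes 20 were above 0, with a median of 0.36, but 1 passed, Gbp3, a guanylate-binding GTPase (0.58, SE 0.15, edgeR adjusted p = 0.0302). Between 0 and 5 of them were called higher over 11 other settings, 5 of 12 when thinned, and 0 with any 1 of treated 1, treated 3 or a vehicle mouse left out. Of 2 B and plasma cell markers tested 1 was called higher, the immunoglobulin heavy chain Ighm (1.64, edgeR adjusted p = 4.32e-06). Fibroblast markers were also above 0, at a median of 1.78 with 0 of 5 called, and tumour epithelial markers at 0.77 with 0 of 7 called. Going the other way, the 1 T and NK cell marker tested was called lower (-1.42, edgeR adjusted p = 6.41e-05). The 1 endothelial marker tested was also called lower (-0.82, edgeR adjusted p = 0.0194). The part of other cells' transcripts in the higher or lower genes was not tested.

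Of 8 class II loading genes tested 0 passed, 4 lay above 0 and the median was 0.00. With cells thinned to 2000 UMIs 3 of 8 were higher in the Arg1-negative cells and the median was 0.35, and without treated 2 there were 2 higher. Ciita averaged 168 ± 63.8 CPM in Arg1-negative cells and 124 ± 47.8 CPM in Arg1-expressing cells (0.42, SE 0.16, edgeR adjusted p = 0.184). Apoe averaged 19011 ± 7459 CPM in Arg1-negative cells and 19354 ± 7638 CPM in Arg1-expressing cells (-0.04, SE 0.10, edgeR adjusted p = 0.928), and Mrc1, the mannose receptor, 339 ± 126 CPM in Arg1-negative cells and 315 ± 100.2 CPM in Arg1-expressing cells (0.06, SE 0.09, edgeR adjusted p = 0.860).

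The third comparison set the Arg1-negative cells against 198 cells that met all conditions except that they had at least 2 UMIs of Folr2, Lyve1, Cd163 and Timd4, the markers of resident-type macrophages. Vehicle 1 had 7 such cells and was left out, so 5 mice entered the fit. Treated mice 1, 2 and 3 gave 40, 51 and 21 such cells with 374339, 376952 and 101664 UMIs. Vehicle mice 2 and 3 gave 48 and 31 such cells with 235113 and 90434 UMIs. Of 5673 genes tested, 346 (6.1%) passed, of which 150 (2.64%) were higher and 196 (3.45%) were lower in the Arg1-negative cells. Of the genes tested in each list, 9 of 14 alternative activation genes and 5 of 12 complement genes were lower, and 4 of 19 glycolysis and hypoxia genes were higher. In the alternative activation list none was higher, with a median of -1.53, where that of all genes was 0.01. Over 10 other settings 8 to 10 of that list were lower and 0 to 1 higher, with medians between -1.53 and -0.39. Leaving out treated 2 gave 203 calls in all, and thinning to 2000 UMIs gave 119.

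Cbr2, a carbonyl reductase, stood in Arg1-negative cells at 3.95, 6.54 and 4.35 CPM in treated mice 1 to 3 and at 24.7 and 14.6 CPM in vehicle mice 2 and 3. In the resident-type cells it stood at 131, 114 and 167 CPM in treated mice and at 328 and 232 CPM in vehicle mice. The classes did not overlap (-4.11, SE 0.23, edgeR adjusted p = 9.25e-10). Mrc1 averaged 371 ± 110.1 CPM in Arg1-negative cells and 1039 ± 592 CPM in resident-type cells (SD, n = 5 mice each; -1.32, SE 0.15, edgeR adjusted p = 3.74e-05). Stab1, a scavenger receptor, averaged 104 ± 21.9 CPM in Arg1-negative cells and 383 ± 251 CPM in resident-type cells (-1.75, SE 0.19, edgeR adjusted p = 1.20e-05). Clec10a, a galactose-binding lectin, averaged 47.4 ± 31.8 CPM in Arg1-negative cells and 235 ± 189 CPM in resident-type cells (-2.18, SE 0.18, edgeR adjusted p = 3.93e-07). Gas6, which was higher than in the Arg1-expressing cells, averaged 53.1 ± 23.3 CPM in Arg1-negative cells and 237 ± 112 CPM in resident-type cells (-2.13, SE 0.16, edgeR adjusted p = 6.71e-08).

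All 22 core macrophage genes tested lay below 0, with 7 called lower and a median of -0.35. Over 10 other settings 2 to 7 of them were called lower, and the median lay between -0.37 and -0.066. Maf, a transcription factor of mature macrophages, averaged 165 ± 28.9 CPM in Arg1-negative cells and 534 ± 274 CPM in resident-type cells (-1.54, SE 0.18, edgeR adjusted p = 3.87e-05). Cd68, a lysosomal glycoprotein of macrophages, fell by 0.66 (SE 0.14, edgeR adjusted p = 0.00491). Of 47 lysosome genes 8 were lower, with a median of -0.20, among them Ctsb at 1758 ± 539 CPM in Arg1-negative cells and 3531 ± 937 CPM in resident-type cells (-1.01, SE 0.11, edgeR adjusted p = 8.03e-06). Of 12 complement genes outside the selection 5 were lower (median -0.55). C4b, which C1q-bound proteases cleave, averaged 107 ± 97.0 CPM in Arg1-negative cells and 440.2 ± 365 CPM in resident-type cells (-2.03, SE 0.21, edgeR adjusted p = 3.75e-05). Properdin, Cfp, fell by 0.71 (SE 0.15, edgeR adjusted p = 0.00483).

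The resident-type cells carried more of several chemokines. Ccl7, a ligand of Ccr2, stood in Arg1-negative cells at 72.8, 84.5 and 112 CPM in treated mice and at 355 and 246 CPM in vehicle mice. In resident-type cells it stood at 264, 255 and 974 CPM in treated mice and at 1297 and 1095 CPM in vehicle mice. Each mouse was lower in its Arg1-negative cells (-2.08, SE 0.18, edgeR adjusted p = 2.45e-06). Ccl2, Ccl6 and Ccl9 fell by 1.13, 1.21 and 0.94 (edgeR adjusted p = 0.000522, 0.00296 and 8.37e-05), which with Ccl7 made 4 of 22 cytokine and chemokine genes lower and 0 higher (median 0.02). With cells thinned to 2000 UMIs 5 of 22 were lower and 6 higher (median 0.42). F13a1, the transglutaminase coagulation factor XIII A, fell by 2.49 (SE 0.29, edgeR adjusted p = 0.00192) and Fcna, a ficolin that recognises microbial sugars, by 3.69 (SE 0.28, edgeR adjusted p = 1.69e-05).

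Of 19 glycolysis and hypoxia genes tested, 4 were higher, with a median of 0.45. Gapdh averaged 1819.7 ± 335 CPM in Arg1-negative cells and 1223 ± 405 CPM in resident-type cells (0.62, SE 0.11, edgeR adjusted p = 0.00122). Pgam1, a phosphoglycerate mutase, rose by 0.72 (SE 0.15, edgeR adjusted p = 0.00533), and the cytokine Mif by 0.73 (SE 0.15, edgeR adjusted p = 0.00503). Over 10 other settings between 1 and 6 of these genes were called. Vcan, the matrix proteoglycan versican, rose by 1.99 (SE 0.41, edgeR adjusted p = 0.00580), and Plac8 by 1.19 (SE 0.26, edgeR adjusted p = 0.00949).

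Among the genes higher than in resident-type cells, Sdc1, a heparan sulfate proteoglycan, averaged 51.2 ± 19.2 CPM in Arg1-negative cells and 10.2 ± 6.94 CPM in resident-type cells (2.84, SE 0.39, edgeR adjusted p = 0.000127). Tnfrsf12a, the receptor of the cytokine TWEAK, averaged 59.6 ± 32.3 CPM in Arg1-negative cells and 10.7 ± 6.77 CPM in resident-type cells (2.40, SE 0.32, edgeR adjusted p = 0.000105). At the summed depths given above, the resident-type levels of Sdc1 and Tnfrsf12a rest on few UMIs per mouse. Tm4sf1, a tetraspanin-like protein, averaged 129 ± 164 CPM in Arg1-negative cells and 20.2 ± 31.9 CPM in resident-type cells (2.96, SE 0.33, edgeR adjusted p = 1.69e-05). Tumour epithelial markers stood higher in the Arg1-negative cells in 4 of 5 mice, at sums of 653, 720 and 226 CPM in treated mice and 952 and 273 CPM in vehicle mice. In resident-type cells they summed to 120, 23.9 and 266 CPM in treated mice and to 600 and 188 CPM in vehicle mice. Dendritic cell markers, taken as a sum, stood higher in the Arg1-negative cells in all 5 mice. Only 1 to 3 of the 10 genes reached 10 CPM in the Arg1-negative cells of any of these mice. The 10 genes summed to 92.5, 126 and 43.5 CPM in treated mice and to 67.6 and 72.1 CPM in vehicle mice. In resident-type cells the sums were 24.0, 15.9 and 9.84 CPM in treated mice and 38.3 and 44.2 CPM in vehicle mice. The 1 dendritic marker tested was called higher (2.09, edgeR adjusted p = 0.0125). The part of either marker list in these higher genes was not tested.

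**Figure D4:**
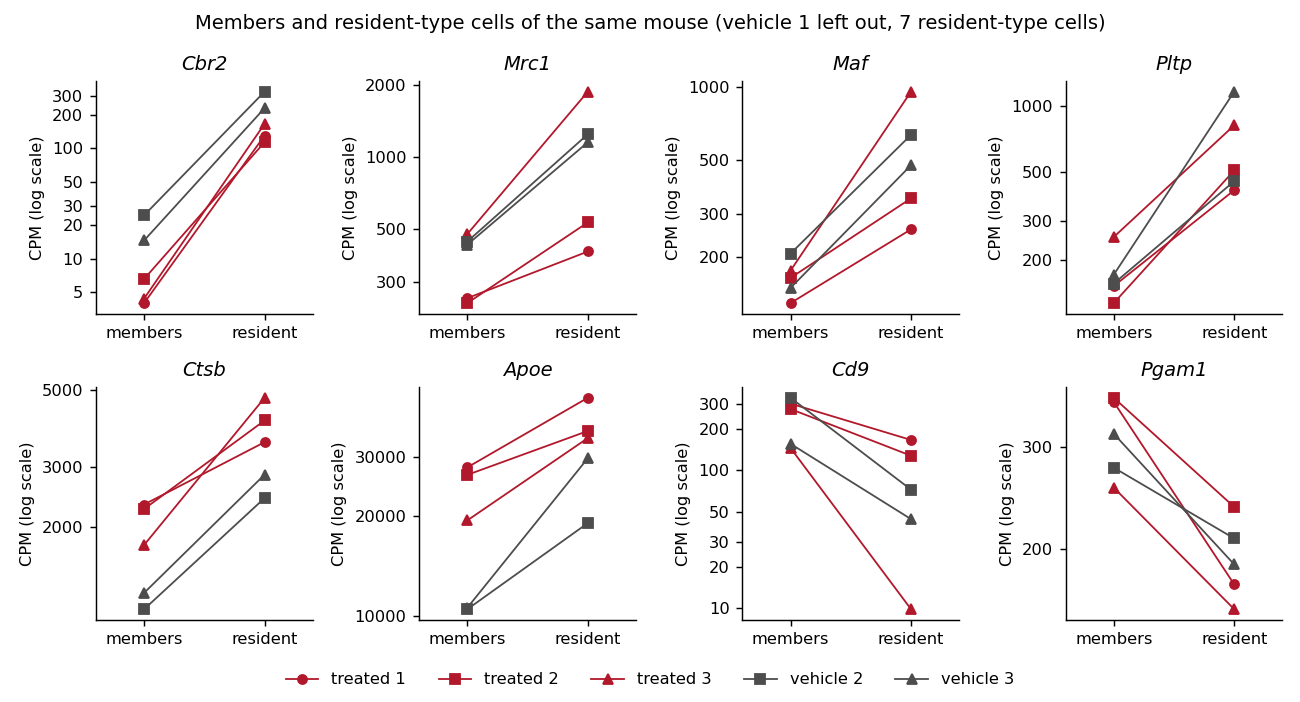
Levels in CPM on a log axis in Arg1-negative class II macrophages (left, members) and resident-type macrophages (right, resident), joined by mouse for the 5 mice tested. Cbr2 at 3.95 to 24.7 CPM in Arg1-negative cells lay below 114 to 328 CPM in resident-type cells in each mouse.

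A last class, 58 cells with at least 3 UMIs of Lpl, Fabp4, Mgll and Atp6v0d2, could be compared in 3 mice with at least 10 such cells, treated 1, treated 2 and vehicle 3, which is the order of values below. Of 6795 genes tested, 152 (2.24%) passed, of which 20 (0.294%) were higher and 132 (1.94%) lower in the Arg1-negative cells. Leaving out treated 2 gave 80 calls, leaving out vehicle 3 gave 276 and leaving out Malat1-poor barcodes gave 101. The lipid-handling cells carried many fibroblast transcripts, whose markers summed to 82.3, 595 and 1990 CPM in the Arg1-negative cells and to 2078, 29161 and 21984 CPM in the lipid-handling cells. The lower genes included the matrix protein Eln, at 2.37, 1.64 and 20.7 CPM in Arg1-negative cells and 60.6, 131 and 1054 CPM in lipid-handling cells (-5.63, SE 0.42, edgeR adjusted p = 9.34e-06). The part of fibroblast transcripts in these genes was not tested. Ciita stood at 166, 148 and 159 CPM in Arg1-negative cells and at 49.6, 10.9 and 37.9 CPM in lipid-handling cells, without overlap (2.30, SE 0.42, edgeR adjusted p = 0.00786). These lipid-handling levels rest on few UMIs, from 15, 15 and 11 cells with 181415, 183704 and 131869 UMIs. Cd74, H2-Aa, H2-Ab1 and C1qa together were also lower there, at 31486, 17751 and 9798 CPM. Their sums in Arg1-negative cells were 38279, 31456 and 32168 CPM. Whether Ciita differed apart from the fibroblast transcripts was not tested. Ccl8 rose by 3.36 (SE 0.45, edgeR adjusted p = 0.000691).

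**Figure D5:**
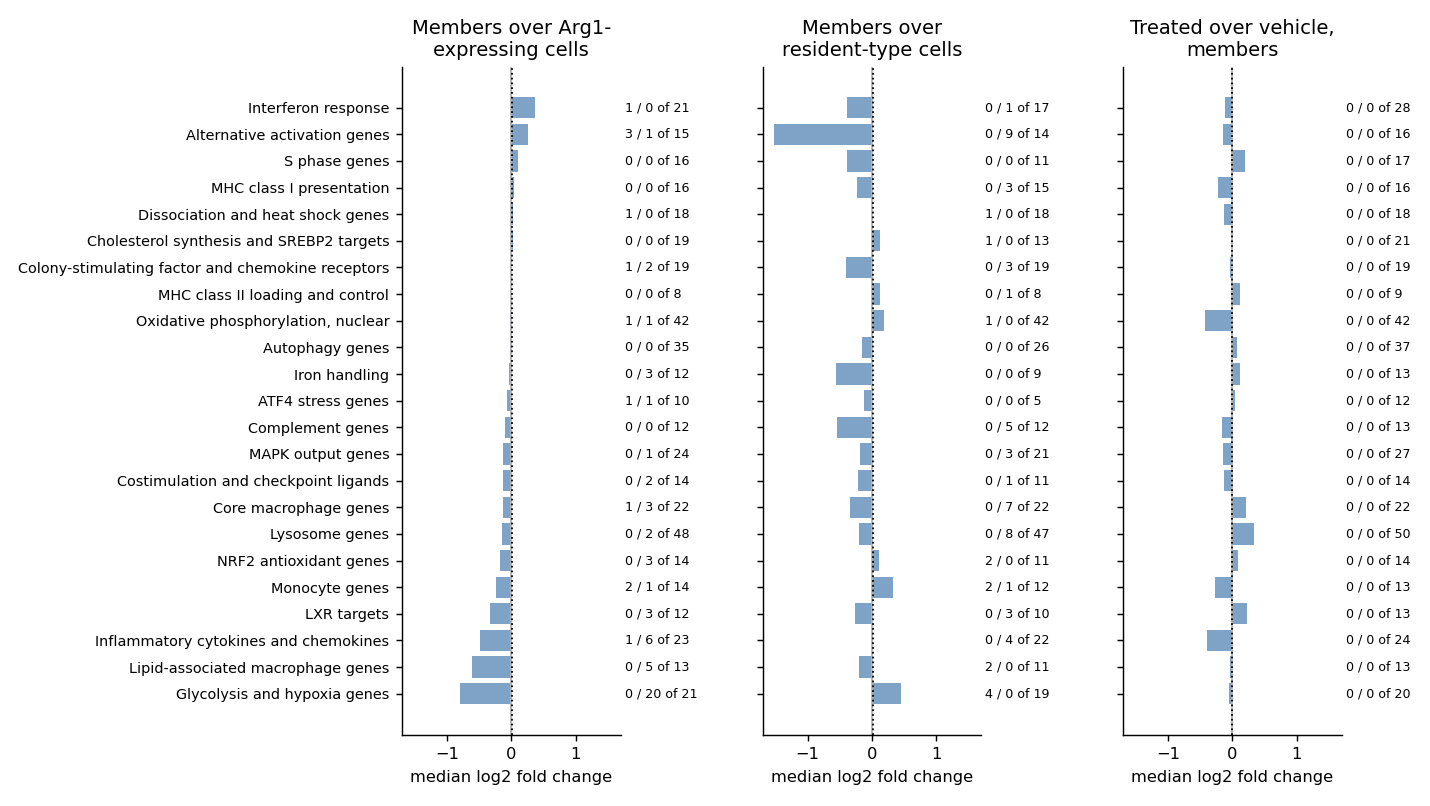
Median log2 fold change of each gene list in 3 comparisons, with the number of genes called higher and lower of those tested written beside each point and a dotted line at the median of all genes tested. Glycolysis and hypoxia genes stood at -0.80 with 20 of 21 lower against Arg1-expressing cells, and at 0.45 with 4 of 19 higher against resident-type cells.

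Whether the treated and vehicle difference was itself different between the Arg1-negative and the Arg1-expressing cells was tested with a class by treatment term. Of 8685 genes, 33 (0.38%) had a higher and 4 (0.0461%) a lower treated over vehicle change in the Arg1-negative cells. Acp5, the tartrate-resistant lysosomal phosphatase, stood in Arg1-negative cells at 774, 717 and 330.4 CPM in treated mice, against 283, 210.2 and 238 CPM in vehicle mice. In Arg1-expressing cells it stood at 615, 709 and 429.9 CPM in treated mice, against 429.6, 555 and 475 CPM in vehicle mice. The groups separated in the Arg1-negative cells and overlapped in the Arg1-expressing cells (interaction 1.01, SE 0.21, edgeR adjusted p = 0.0480). The call held under 5 of 11 other settings, with an adjusted p of up to 0.304. Vcam1, an adhesion molecule, stood in Arg1-negative cells at 52.2, 65.4 and 58.0 CPM in treated mice, against 62.2, 52.3 and 17.7 CPM in vehicle mice. In Arg1-expressing cells it stood at 9.92, 19.4 and 9.88 CPM in treated mice, against 57.1, 34.2 and 11.4 CPM in vehicle mice (interaction 1.78, SE 0.33, edgeR adjusted p = 0.0191). It held under 6 of 11 other settings, with an adjusted p of up to 0.820.

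Among the 9 genes flagged below, the largest interaction was that of the collagen chain Col5a1 at 3.56 (SE 0.46, edgeR adjusted p = 0.00103). The collagen chaperone Serpinh1 followed at 2.36 (SE 0.43, edgeR adjusted p = 0.0385), a call that held under 5 of 10 other settings. Outside those 9, 1 complement gene was called at 4.12 (edgeR adjusted p = 0.000238) and 1 interferon response gene at -1.56 (edgeR adjusted p = 0.0424). Fibroblast markers had a like pattern, summing in Arg1-negative cells to 82.3, 595 and 3156 CPM in treated mice, against 80.6, 1518 and 1990 CPM in vehicle mice, and in Arg1-expressing cells to 68.0, 49.0 and 148 CPM in treated mice, against 58.5, 1050.0 and 1600.2 CPM in vehicle mice. Of 6 fibroblast markers tested 2 had a higher interaction. Of 7 neutrophil markers 1 had a lower one, Retnlg, a secreted resistin-like protein (-4.32, edgeR adjusted p = 0.00710), with a median of -1.76. The part of either marker list in these genes was not tested. Glycolysis and hypoxia genes gave 0 of 21 interactions, with a median of 0.02, and lysosome genes 0 of 51, with a median of 0.04. DESeq2 called 11 genes and thinned cells 4, where edgeR called 37 with all UMIs. Leaving out treated 2 gave 20 calls and leaving out vehicle 3 gave 9.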

How the data were processed

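Droplet single-cell libraries of 6 tumours, 3 treated and 3 vehicle, were analysed. The deposited matrices hold raw UMI counts of 32285 features in 44819 barcodes, made with Cell Ranger 5.0.1 on mm10 per the submitters' processing notes; they name no annotation release. Barcodes under 500 UMIs, under 250 genes or over 20% mitochondrial UMIs were left out. Scrublet's own threshold called 0% to 0.973% of a library and was not used, so doublets were left in, and an alternative left out the 0.8% per 1000 barcodes with the highest scores (2644 barcodes, 88 of the cells described).

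Counts were summed per mouse and cell class and tested with edgeR 4.0.16 in R 4.3.3 (TMM, filterByExpr, robust quasi-likelihood fit, two-sided), with Benjamini-Hochberg adjustment over all genes tested. Mice needed at least 10 cells of a class, and comparisons within mice had mouse as a term. The 21 selection genes stayed in library sizes and out of the tests. Each number in the labels names a separate mouse. Summed depth of the cells described ran from 434106 to 2869142 UMIs per mouse, and intervals cover counting error only. Shares were compared by exact permutation of the group labels over mice, two-sided. Cells and tables were handled in Python 3.11.15 with scanpy 1.11.5 and scipy 1.17.1. Gene coordinates come from GENCODE M21 (mm10) and promoters from RefSeq (GRCm38.p6).

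Genes were named from called genes that changed by 1 or more on the log2 scale and averaged 5 or more in log2 CPM. They also had the same direction in every mouse (or no overlap). The 10 largest rises and falls were taken, apart from predicted, ribosomal, mitochondrial, sex-linked, antigen receptor and other cells' marker genes. Up to 4 called genes per list, or the 2 most abundant, and 20 fixed genes were added. Not all of these are described. The cells, the 23 gene lists, the 12 marker lists and these rules were chosen with earlier results of these data known. Alternatives were DESeq2 1.42.0, RLE size factors, no filter on low counts, thinning to 2000 UMIs, doublets left out, at most 10% mitochondrial UMIs, leaving out genes under 10% of their level in another gated class, summing treated 1 and 2, a replicate block and leaving out each mouse. Settings without Malat1-poor barcodes, with at least 2000 UMIs, or with both of treated 1 and 2 summed and no Malat1-poor barcodes, were chosen after seeing the data.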

Additional observations from a re-analysis of the deposited data

Results flagged for a closer look

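Genes whose treated over vehicle change differed between Arg1-negative and Arg1-expressing class II macrophages are listed because the difference itself was tested (edgeR, class by treatment term, adjusted p under 0.05). There were 37 such genes, of which 9 are listed by value. The called complement and interferon response genes given above are not among them. On the log2 scale the difference in change was 3.56 for Col5a1, a collagen chain, 2.36 for Serpinh1, the collagen chaperone, 1.83 for Igfbp7, a secreted growth factor binding protein, 1.78 for Vcam1, 1.58 for Bex3, 1.51 for the ubiquitin ligase Nedd4, 1.05 for the secreted protein Nenf and 1.01 for Acp5. It was -1.58 for Calml4, a calmodulin-like protein. Of these 9 genes Col5a1 kept its call under each other setting in which it was tested. Fibroblast and neutrophil marker transcripts differed between the same sums, and their part in these genes was not tested.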

How the results depend on the processing

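Between treated and vehicle mice DESeq2 called 13 genes, no filter on low counts gave 17, thinning to 2000 UMIs gave 5, and leaving out 1 mouse gave 0 to 1, where 1 came without vehicle 2 (S100a8). Against Arg1-expressing cells no filter gave 718 calls and leaving out 1 mouse 193 to 369. Against resident-type cells no filter gave 695, thinning 119 and leaving out 1 mouse 203 to 325. Against lipid-handling cells no filter gave 403, the setting without Malat1-poor barcodes 101 and leaving out 1 mouse 80 to 276, and a thinned fit was not possible with so few cells. For the difference in response DESeq2 gave 11 calls, no filter 101, thinning 4 and leaving out 1 mouse 9 to 55. Against Arg1-expressing cells, counts over other settings ran from 0 to 3 higher for class II loading genes, 0 to 5 higher for interferon genes and 3 to 13 lower for cytokines and chemokines. Against resident-type cells they ran from 0 to 6 higher for cytokines and chemokines and 3 to 9 lower for lysosome genes. The causes were not tested. Called genes named by the rule were followed over the alternatives that tested them. The call was kept in each by 27 of 44 against Arg1-expressing, 31 of 46 against resident-type and 4 of 10 against lipid-handling cells. For the difference in response it was kept by 1 of 9, a count without the called complement and interferon response genes.

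The share difference was -4.18 points when thinned, turned to 0.168 points over all barcodes, and lay between -17.0 and 4.39 points with 1 mouse left out. Log2 changes of treated over vehicle that turned sign, none of them called, were as follows. Thinning gave Dusp6 0.17, Etv5 0.0097, Sqstm1 0.093 and Il1b 0.10. Without Malat1-poor barcodes Il1b was 0.10 and H2-DMa -0.090, and with at least 2000 UMIs Il1b was 0.019, H2-DMa -0.035 and Cx3cr1 0.0013. With treated 1 and 2 summed Ccr2 was 0.16, Cx3cr1 0.00066 and Mrc1 0.037, and without Malat1-poor barcodes as well Ccr2 was 0.13, Cx3cr1 0.060, Mrc1 0.018 and H2-DMa -0.087. Il1b was 0.13 without high doublet scores and 0.011 at 10% mitochondrial UMIs. Leaving out 1 mouse gave -1.47 to 0.26 for Ccr2, -0.23 to 0.12 for Cx3cr1, -0.40 to 0.014 for Dusp6, -0.63 to 0.066 for Etv5, -0.054 to 0.18 for H2-DMa, -0.45 to 0.43 for Il1b, -0.46 to 0.065 for Mrc1 and -0.53 to 0.00053 for Trem2. Against Arg1-expressing cells thinning gave Apoe 0.28 and Trem2 0.058, and leaving out 1 mouse gave -0.10 to 0.036 for Apoe and -0.0040 to 0.091 for Mrc1.

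Mice share only a number between groups: same-numbered mice had correlations of 0.235, -0.032 and 0.336. With the number as a replicate block 0 genes were called and Il1b was 0.24.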
